A study of Mus musculus with 70 samples.

Results

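Interferon gamma (IFNg) was compared with interferon beta (IFNb) in MC38.7, a mouse colorectal cancer cell line from C57BL/6, by RNA sequencing after 48 h of stimulation. The comparison rests on 3 libraries of cells given 100 ng/mL IFNg and 3 libraries of cells given 1000 activity units/mL IFNb, which are 6 of the 70 libraries in the series. A further 3 libraries of unstimulated MC38.7 cells (NS) give each gene's level without added cytokine. Libraries were chosen by cell line and treatment, with no measured value involved, and all 35197 genes of the deposited table were members. Of these, 16147 had enough counts across the series to be tested, and the text follows the genes that separated the cytokines. The series holds 8 mouse cancer lines that were all grown in DMEM with serum and given the same treatments. The other 7 lines gave 41 IFNg or IFNb libraries and were the melanoma lines B16.1 and YUMMER1.7, the colorectal line CT26.2, the pancreatic lines KPC.2 and Panc02.3, the lung line LLC and the renal line Renca. LLC had 2 IFNg libraries and 3 IFNb libraries. The doses are in different units, so the kind of cytokine cannot be told apart from its effective dose. The labels do not mark the replicates as separate cultures. The p-values therefore measure only the spread between libraries, estimated over all groups of the series, which may be technical.

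Type I interferons such as IFNb bind the receptor of Ifnar1 and Ifnar2 and act through Jak1 and Tyk2 on a complex that holds Stat2 and Irf9. That complex binds the interferon-stimulated response element (ISRE) and is known for switching on antiviral genes. IFNg binds the receptor of Ifngr1 and Ifngr2 and acts through Jak1 and Jak2 on factors that bind the gamma-activated site (GAS) and switch on Irf1, guanylate-binding proteins and antigen presentation. Both cytokines are studied in tumour cells because they change how such cells are seen by T cells.

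Total estimated counts were 24858100, 22402635 and 28550816 in the IFNg libraries, 16235528, 15483596 and 3940566 in the IFNb libraries, and between 10423758 and 13203908 in the NS libraries. Levels are given as CPM, the count scaled to the library's total after normalization between libraries, and since CPM does not correct for transcript length they are compared only within a gene. In bulk RNA, fewer cells with a transcript and less transcript per cell cannot be told apart. The 16 epithelial and intestinal marker genes summed to between 2.47 and 2.53 CPM with IFNg, between 2.79 and 3.52 CPM with IFNb and between 3.2 and 3.66 CPM in NS. Epcam, Cldn3 and Muc2 had 0 counts in all 9 libraries, so the transcripts that define colorectal epithelium were near absent, while 11 mesenchymal markers summed to between 2550 and 2630 CPM with IFNg, between 3020 and 3260 CPM with IFNb and between 2390 and 2500 CPM in NS. Vim, an intermediate filament gene, led them at 2055 ± 42.7 CPM with IFNg and 2578 ± 95.5 CPM with IFNb (SD, n = 3 each). Leukocyte markers (18 genes) summed to between 15.3 and 16.4 CPM with IFNg, between 16.2 and 18.8 CPM with IFNb and between 12.0 and 13.8 CPM in NS. Their defining gene Ptprc had 5, 5 and 4 counts over the IFNg, IFNb and NS groups. Endothelial markers (8 genes) summed to between 16.5 and 18.8 CPM, between 14.6 and 17.8 CPM and between 19.2 and 20.8 CPM in the IFNg, IFNb and NS groups. Fibroblast markers (8 genes, shared in part with mesenchymal cells) summed to between 457 and 466 CPM with IFNg, between 573 and 598 CPM with IFNb and between 447 and 456 CPM in NS. The part of cell makeup in the results was not tested. Mitochondrially encoded genes took 2.087 ± 0.243% of counts with IFNg and 2.064 ± 0.0675% with IFNb (SD, n = 3 each), a difference of 0.02267 percentage points that did not pass an exact 2-sided permutation test (p = 0.9, smallest possible p = 0.1).

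Among the genes of the lists used here, 2 sets stood apart in MC38.7, while most genes that separated the cytokines were in no list. Guanylate-binding protein genes, Irf1, Batf2 and parts of the MHC class I machinery were higher with IFNg, while OAS, Ifit, Mx, ISG15-system, PARP and nucleic acid sensor genes were lower with IFNg. At an adjusted p under 0.05 and a difference of at least 2-fold, 155 genes were higher with IFNg (0.96% of those tested) and 342 were lower (2.12%; edgeR's quasi-likelihood test, p-values adjusted by Benjamini-Hochberg). On the lower side 95 genes differed by at least 8-fold and 62 by at least 16-fold, against 30 and 14 genes on the higher side. Libraries of the 2 cytokines did not overlap in CPM for 150 of the 155 higher and 299 of the 342 lower genes, where 44.9% of all tested genes did not overlap. Predicted loci made up 33 of the higher and 43 of the lower genes. Genes in the lists made up 32 of the higher and 71 of the lower genes. Without the 2-fold limit, 2880 genes were higher with IFNg (17.8% of those tested) and 1697 lower (10.5%), so that 62.9% of the calls were higher. With relative log expression size factors 49.5% were higher (2189 higher and 2233 lower), so the split of small differences depended on the scaling and is not read here. The 17.8% and 10.5% are the background for the list counts below. The 2-fold counts moved by over 1.5 times in 1 case, the lower genes under limma-voom (687). Of the 2-fold calls 92 had 3 or fewer counts in 1 of the groups.

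**Figure D1:**
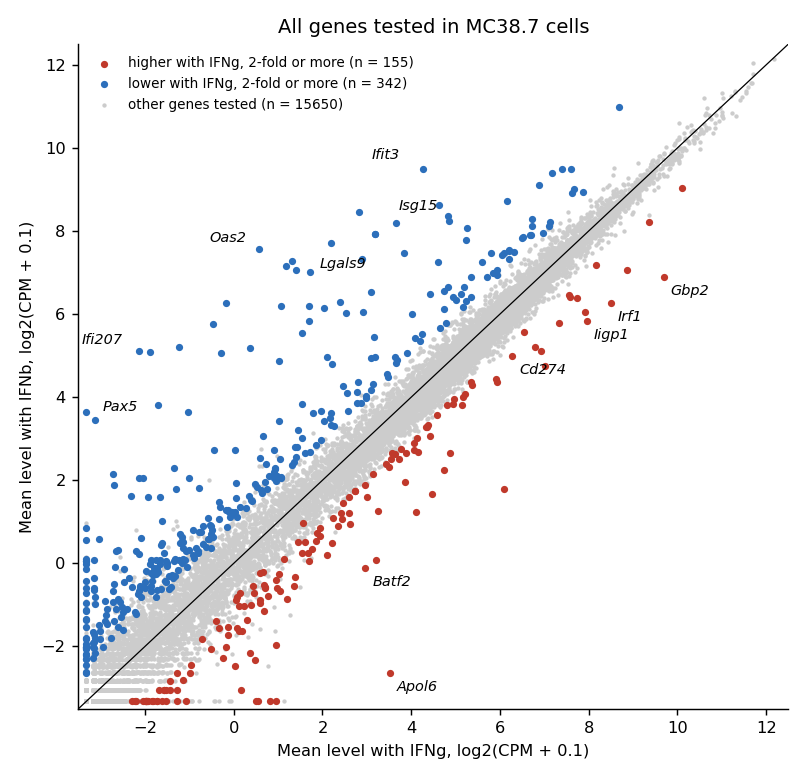
Mean level of each of the 16147 tested genes with IFNg (x axis) and with IFNb (y axis) in MC38.7, both as log2(CPM + 0.1) over 3 libraries each. The 155 genes at least 2-fold higher with IFNg (red) lie below the diagonal and the 342 genes at least 2-fold lower with IFNg (blue) reach farther from it, and the grey points are all other tested genes.

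Against unstimulated cells the cytokines moved unequal numbers of genes. With IFNg 202 genes were at least 2-fold above NS (1.25% of those tested) and 16 below (0.0991%). With IFNb 534 genes were at least 2-fold above NS (3.31%) and 158 below (0.979%). Without the 2-fold limit 628 genes were higher (3.89%) and 143 lower (0.886%) with IFNg, and 2228 were higher (13.8%) and 2720 lower (16.8%) with IFNb. These shares without the limit are the background for the list counts against NS below. Both contrasts share the NS libraries and are only set side by side. The NS level divides the genes that separate the cytokines, as a description, since the same IFNg and IFNb libraries chose them. Of the 155 genes higher with IFNg, 42 had an NS mean at least 2-fold below the IFNb mean, so both cytokines stood above NS. Another 85 had an NS mean at least 2-fold above the IFNb mean, and for these the gap came with a low level under IFNb. Of the 342 genes lower with IFNg, 125 had an NS mean at least 2-fold below the IFNg mean, 157 an NS mean within 2-fold of it and 60 an NS mean at least 2-fold above it. For 2 of the 342 the NS mean was above the IFNb mean.

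Promoter windows of 5 genes are shown. By size of difference, Gbp2 and Irak2 came first among ranked genes higher with IFNg that had a usable window. Ifi207 and Ifi206 came first among those lower with IFNg. Ranked genes without a usable window were passed over, and Irf1 was added by choice and not by its rank. The windows run 5′ to 3′ on the gene's strand, from 250 bases before to 50 after the start, from RefSeq on GRCm38.p6. Capitals mark matches to an ISRE core, GAAANNGAA, or to a GAS, TTCNNNGAA, each searched on both strands; the GAS letters read the same on both strands, and overlap between the motifs was allowed.
Gbp2, chr3:142620413-142620712, plus strand, with an ISRE core on the reverse strand: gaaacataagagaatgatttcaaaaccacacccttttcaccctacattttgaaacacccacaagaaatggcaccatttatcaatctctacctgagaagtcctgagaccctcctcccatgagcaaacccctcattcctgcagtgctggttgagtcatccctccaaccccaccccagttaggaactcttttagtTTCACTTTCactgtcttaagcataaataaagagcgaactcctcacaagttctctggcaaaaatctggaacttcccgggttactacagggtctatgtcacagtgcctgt
Irf1, chr11:53769764-53770063, plus strand, with a GAS: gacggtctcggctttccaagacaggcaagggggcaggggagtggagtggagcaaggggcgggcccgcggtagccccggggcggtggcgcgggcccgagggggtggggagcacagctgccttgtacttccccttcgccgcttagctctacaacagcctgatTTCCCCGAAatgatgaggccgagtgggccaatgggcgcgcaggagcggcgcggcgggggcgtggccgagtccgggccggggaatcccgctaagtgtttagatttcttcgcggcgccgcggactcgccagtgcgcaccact
Irak2, chr6:113638217-113638516, plus strand, with neither: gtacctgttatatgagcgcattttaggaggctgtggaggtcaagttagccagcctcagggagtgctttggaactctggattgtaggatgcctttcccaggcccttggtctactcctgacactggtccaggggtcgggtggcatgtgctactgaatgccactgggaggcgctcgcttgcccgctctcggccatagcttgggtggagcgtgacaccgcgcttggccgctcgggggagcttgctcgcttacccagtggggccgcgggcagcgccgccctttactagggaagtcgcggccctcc
Ifi207, chr1:173741760-173742059, minus strand, with an ISRE core: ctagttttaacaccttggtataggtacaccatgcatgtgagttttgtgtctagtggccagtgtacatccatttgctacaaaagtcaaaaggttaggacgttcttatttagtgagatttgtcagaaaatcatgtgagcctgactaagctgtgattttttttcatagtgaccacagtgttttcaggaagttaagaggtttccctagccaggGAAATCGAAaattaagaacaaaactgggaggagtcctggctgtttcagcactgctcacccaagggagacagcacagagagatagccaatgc
Ifi206, chr1:173491269-173491568, minus strand, with an ISRE core: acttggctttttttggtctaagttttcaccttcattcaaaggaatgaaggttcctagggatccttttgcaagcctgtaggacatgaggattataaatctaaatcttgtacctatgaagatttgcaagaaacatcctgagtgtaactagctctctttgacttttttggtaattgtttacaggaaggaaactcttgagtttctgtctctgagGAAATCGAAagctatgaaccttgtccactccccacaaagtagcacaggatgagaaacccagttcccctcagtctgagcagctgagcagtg
The ISRE core began 58 bases before the start of Gbp2, 41 before that of Ifi207 and 40 before that of Ifi206, and the GAS began 90 bases before the start of Irf1. These distances are from RefSeq's start, which for Gbp2 lies inside the gene's span in the GRCm38 annotation, where the outermost transcript begins farther upstream. Ifi207 and Ifi206 share the letters GAAATCGAA in that place. Of 32851 RefSeq promoter windows 8.56% held the ISRE core and 8.3% a GAS, and of the 11558 tested genes with a window 8.73% and 8.57% did. Among genes at least 2-fold lower with IFNg, 230 of 342 had a window, of which 25.7% held the ISRE core and 9.57% a GAS. Among those at least 8-fold lower, 64 of 95 had a window, and 32 windows held the ISRE core and 3 (4.69%) a GAS. Among genes at least 2-fold higher, 95 of 155 had a window, and 21.1% held the ISRE core and 17.9% a GAS. Among those at least 4-fold higher, 32 of 56 had a window, of which 4 held the ISRE core and 3 (9.38%) a GAS. A match is a run of letters, not a site shown to be bound.

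Receptor genes differed little between the cytokines. Ifngr1 had 16.6 ± 0.391 CPM with IFNg and 16.8 ± 1.74 CPM with IFNb (SD, n = 3 each), and Ifngr2 had 25.96 ± 1.12 and 24.2 ± 3.92 CPM, and neither passed the test. The type I receptor gene Ifnar2 was slightly higher with IFNg, at 33.8 ± 2.25 CPM against 26.7 ± 2.06 CPM with IFNb (log2 difference 0.34 ± 0.09 SE, adjusted p = 0.00169 in edgeR), a call lost with libraries thinned to the smallest. Ifnar1, the other type I receptor gene, was also slightly higher with IFNg, at 60.4 ± 0.975 CPM against 52.3 ± 3.09 CPM with IFNb. Its log2 difference was 0.20 ± 0.06 (SE, adjusted p = 0.0104 in edgeR). Of 20 tested genes for interferon receptors, JAKs, STATs and IRFs, 8 were higher and 4 lower with IFNg (background 17.8% and 10.5%). Their median log2 difference was 0.16 against 0.03 over all genes tested.

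The transcription factors carried the widest gaps in that list. Irf1, which drives MHC class I and GBP genes, had 348, 367 and 367 CPM with IFNg, against 78.9, 77.9 and 73.1 CPM with IFNb and 52.1, 48.9 and 45.3 CPM in NS. Its log2 difference between the cytokines was 2.23 ± 0.06 (SE; adjusted p = 2.24e-37, edgeR), and the IFNg libraries lay above all others. Batf2, an AP-1 family factor known from IFNg-activated macrophages, had 7.06, 7.99 and 8.07 CPM with IFNg and 0.666, 1.09 and 0.703 CPM with IFNb, and no count in NS (log2 difference 3.16 ± 0.21). Stat3, a factor of cytokine receptors, was higher with IFNg, at 146 ± 2.97 CPM against 84.6 ± 1.46 CPM with IFNb and 68.4 ± 1.57 CPM in NS.

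Stat2 and Irf9, both of the type I complex, were lower with IFNg. Stat2 had 163 ± 10.1 CPM with IFNg, 293 ± 2.26 CPM with IFNb and 20.03 ± 1.55 CPM in NS (SD, n = 3 each; log2 difference between the cytokines −0.84 ± 0.08, adjusted p = 1.93e-12). Irf9 was lower with IFNg by less, at 72.3 ± 2.26 CPM against 94.1 ± 2.89 CPM with IFNb and 4.91 ± 0.681 CPM in NS (−0.39 ± 0.07). Irf7, the factor that amplifies type I interferon production, had 11.4, 13.01 and 13.3 CPM with IFNg, against 284, 298 and 289.7 CPM with IFNb and 0.359, 0.259 and 0.812 CPM in NS. The Irf7 groups were far apart, with a log2 difference of −4.53 ± 0.10 (SE; adjusted p = 2.42e-42), while its IFNg level still stood above NS (log2 difference 4.72, adjusted p = 3.4e-24).

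Guanylate-binding proteins (GBP) and immunity-related GTPases (IRG), which act on vacuoles of intracellular pathogens, were mostly higher with IFNg. Of 20 tested members 16 were higher and 2 lower, 13 of the higher by at least 2-fold, with a median log2 difference of 1.41 (1.34 over the 19 members past 3 counts in either group, with Gbp11 at its bound). Against NS, 18 of the 20 were higher with IFNg and 18 with IFNb (background against NS 3.89% and 13.8%). Gbp2 (chr3:142620602-142638008, GRCm38) had 824, 823 and 825 CPM with IFNg, against 111, 131 and 112 CPM with IFNb and 2.15, 1.12 and 1.08 CPM in NS. The groups lay apart by 6.96-fold (log2 difference 2.80 ± 0.08 SE, adjusted p = 3.22e-37), with IFNb itself far above NS. Gbp4 followed at 119, 133 and 135 CPM with IFNg and 24.4, 28.8 and 26.7 CPM with IFNb (2.28 ± 0.09). Gbp6 averaged 122 ± 10.2 CPM with IFNg and 34.5 ± 4.26 CPM with IFNb (1.78 ± 0.14). Among the IRG genes, Iigp1 had 237, 253 and 253 CPM with IFNg and 54.4, 64.3 and 52.5 CPM with IFNb, with 1 count in NS (2.10 ± 0.09), and Igtp averaged 463 ± 10.6 and 134 ± 11.9 CPM (1.78 ± 0.07). The exceptions were Gbp3, lower with IFNg at 138, 142 and 144 CPM against 219.9, 236 and 219.9 CPM with IFNb (−0.67 ± 0.07, adjusted p = 1.91e-12), and Gbp9 (−0.24 ± 0.09, adjusted p = 0.0464), whose call was lost when any of 4 libraries was left out (adjusted p up to 0.287). Members of the GBP, IRG, OAS, Ifit, PYHIN, Slfn and H2 families are near copies of each other, and the authors' estimated counts could divide reads between them, so single members are less certain than their families.

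Antigen presentation split within itself. Of 27 tested MHC class I genes 15 were higher and 2 lower with IFNg (background 17.8% and 10.5%). Their median log2 difference was 0.34. Against NS, 24 were higher with IFNg and 23 with IFNb (background against NS 3.89% and 13.8%). The larger gaps were in the regulator and the peptide machinery: Tapbpl, a peptide editor, differed by 1.63 ± 0.09, the immunoproteasome subunit Psmb9 by 1.58 ± 0.09 and Psmb10 by 1.09 ± 0.09, and the transactivator Nlrc5 by 1.19 ± 0.08 on the log2 scale (SE). Nlrc5 had 183, 195 and 199 CPM with IFNg, against 84.5, 81.3 and 87.7 CPM with IFNb and 25.7, 24.96 and 30.03 CPM in NS. Tap1, which carries peptides into the endoplasmic reticulum, averaged 344 ± 7.02 CPM with IFNg and 213 ± 19.2 CPM with IFNb (0.69 ± 0.07). The heavy chain genes themselves stood close together: H2-K1 had 1432, 1449.8 and 1463 CPM with IFNg, against 1331, 1327 and 1291 CPM with IFNb and 461, 448 and 415 CPM in NS (0.14 ± 0.08, adjusted p = 0.204). H2-D1 differed by 0.02 ± 0.06 (adjusted p = 0.87). B2m, the light chain, was lower with IFNg by a small amount (−0.17 ± 0.06, adjusted p = 0.0209), a call that leaving out any 1 of 4 libraries ended (adjusted p up to 0.102).

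The chains of MHC class II and their regulator were near 0 with both cytokines. Ciita, their master regulator, had 17 counts over the IFNg libraries, 2 over the IFNb libraries and 4 over the NS libraries, and did not pass (adjusted p = 0.193). Its ratio of IFNg to IFNb was 4.01 with a 95% interval of 0.951 to 35.8, from an exact binomial interval that covers counting error only. Cd74, the invariant chain, averaged 0.124 ± 0.0708 CPM with IFNg, 0.103 ± 0.0934 CPM with IFNb and 0.185 ± 0.1 CPM in NS. Of 14 tested members 1 was higher (Rfx5, 0.51 ± 0.11) and 2 lower, H2-DMa (−0.94 ± 0.25) and Ifi30 (−0.25 ± 0.10), and none of these 3 is a chain of the presenting class II molecules. The Ifi30 call was lost on leaving out any 1 of the 6 libraries (adjusted p up to 0.135), and that of Rfx5 with libraries thinned to the smallest.

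**Figure D2:**
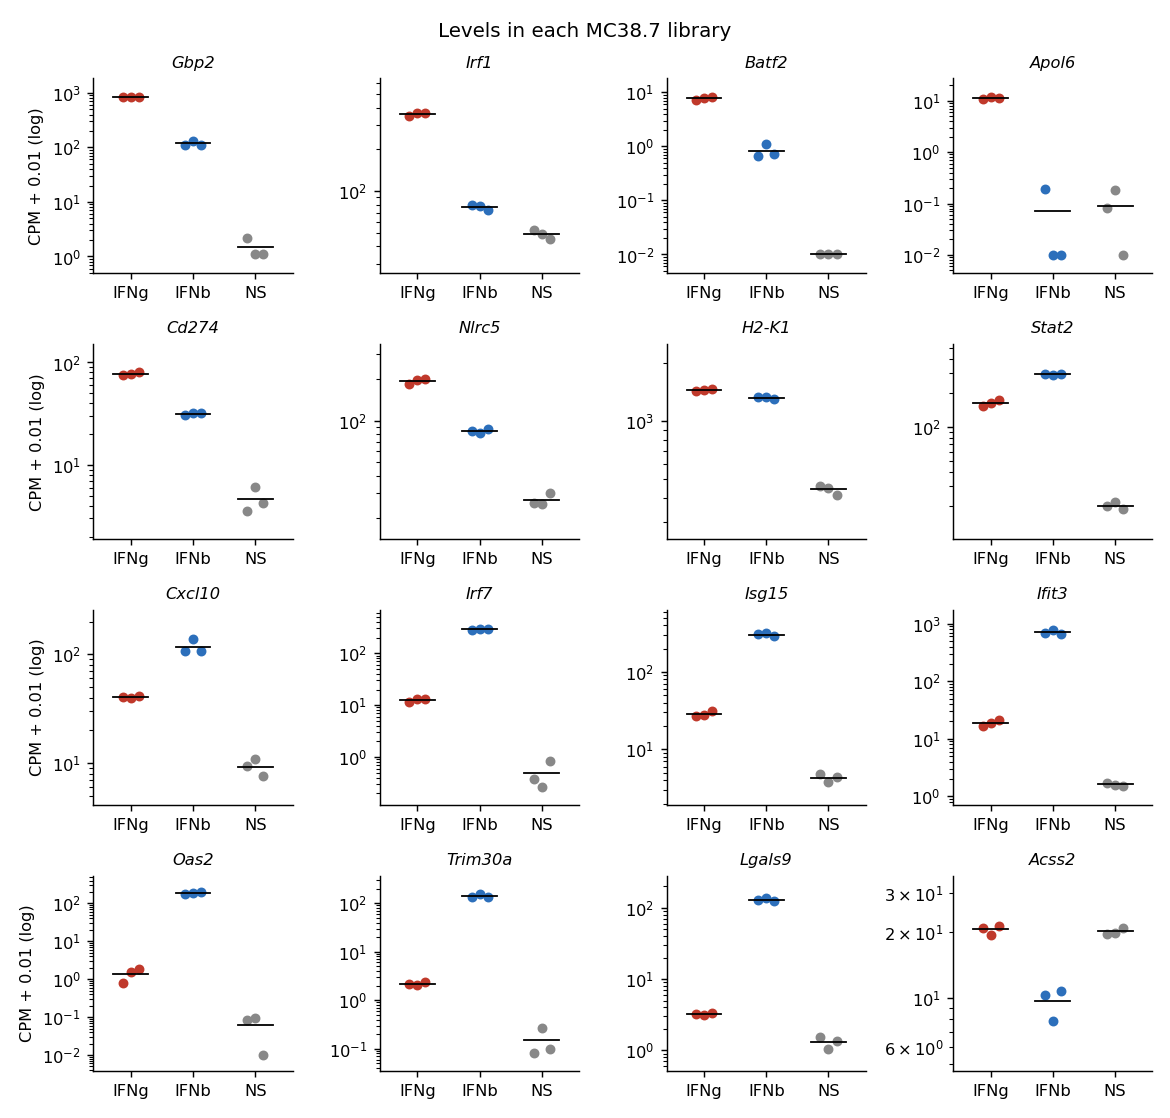
CPM + 0.01 on a log axis in each of the 9 MC38.7 libraries for 16 genes, with IFNg left, IFNb in the middle and NS right, and lines at the group means. Gbp2, Irf1, Batf2, Apol6 and Cd274 are highest with IFNg, Irf7, Isg15, Ifit3, Oas2, Trim30a and Lgals9 are highest with IFNb, H2-K1 differs little between the cytokines, and Acss2 is lowest with IFNb.

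Checkpoint genes differed one by one. Cd274, which encodes PD-L1, had 74.9, 77.3 and 80.4 CPM with IFNg, against 30.6, 32.1 and 32.1 CPM with IFNb and 3.51, 6.13 and 4.24 CPM in NS. The 3 groups did not overlap, and IFNg was above IFNb by 1.30 ± 0.08 on the log2 scale (SE; adjusted p = 4.4e-20). Lgals9, the gene of galectin-9, ran opposite: 3.19, 3.1 and 3.36 CPM with IFNg, against 128, 138 and 124 CPM with IFNb and 1.51, 1.04 and 1.35 CPM in NS (−5.33 ± 0.08, adjusted p = 7.66e-49). Cd47, an inhibitor of phagocytosis, was also lower with IFNg, at 58.9 ± 4.05 CPM against 90.03 ± 3.53 CPM with IFNb (−0.62 ± 0.06). Tnfrsf14, the receptor known as HVEM, was higher with IFNg at 5.4 ± 0.421 CPM against 2.63 ± 0.772 CPM (1.16 ± 0.28, a call lost with libraries thinned to the smallest), as was Serpinb9, which inhibits granzyme B (0.86 ± 0.13). In all, 4 of 16 tested members were higher and 3 lower, beside 17.8% and 10.5% of all genes tested. These counts are not read as a result about the list.

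Of the chemokine genes 1 of 14 tested was higher and 5 lower with IFNg (background 17.8% and 10.5%). Cxcl10, which draws T cells through Cxcr3, had 40.5, 39.3 and 41.6 CPM with IFNg, against 108, 138 and 108 CPM with IFNb and 9.39, 10.8 and 7.57 CPM in NS (−1.55 ± 0.11, adjusted p = 1.89e-17). Cxcl10 rose against NS with IFNg (log2 difference 2.12, adjusted p = 2.95e-18) and with IFNb (3.68, adjusted p = 4.36e-30). Cxcl9, a ligand of the same receptor, was the 1 higher member, a call lost with libraries thinned to the smallest (adjusted p = 0.293 in edgeR), with 17 counts over the IFNg libraries and 0 over the IFNb libraries, at least 2.67-fold higher against a floor of 3 counts over the IFNb group. Its level with IFNg was 0.227 CPM. Ccl5 averaged 2.79 ± 0.454 CPM with IFNg, 8.0 ± 0.283 CPM with IFNb and 1.06 ± 0.0663 CPM in NS (−1.51 ± 0.14).

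Antiviral effectors formed the largest block on the IFNb side. Of 34 tested OAS, Ifit and Mx group genes 31 were lower with IFNg and 0 higher, 29 of them by at least 2-fold, and the median log2 difference was −2.57. Against NS, 25 of the 34 were higher with IFNg and 33 with IFNb (background against NS 3.89% and 13.8%), and 0 were lower with either. Oas2, which makes 2′,5′-oligoadenylates that activate RNase L, had 0.797, 1.57 and 1.82 CPM with IFNg, against 177, 189 and 201 CPM with IFNb and 0.0717, 0.0864 and 0 CPM in NS. The log2 difference between the cytokines was −7.04 ± 0.17 (SE; adjusted p = 1.05e-39), and IFNg still stood above NS (adjusted p = 4.32e-05). Its relatives Oas1g (−6.57 ± 0.18), Oas1a (−6.02 ± 0.13), Oasl1 (−5.70 ± 0.12) and Oas3 (−4.75 ± 0.11) were far lower with IFNg as well. Ifit3, which binds viral RNA with other Ifit proteins, had 16.9, 19.1 and 20.9 CPM with IFNg, against 704, 788 and 653 CPM with IFNb and 1.72, 1.55 and 1.53 CPM in NS (−5.23 ± 0.12). Mx1, a GTPase gene, averaged 3.17 ± 1.11 CPM with IFNg, 73.5 ± 9.14 CPM with IFNb and 2.35 ± 0.696 CPM in NS. For Mx1 the IFNg level did not pass against NS (adjusted p = 0.491), and for Oasl1 it did not either (adjusted p = 1.0).

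Not every antiviral gene separated so widely. Rsad2, the gene of viperin, differed by −4.02 ± 0.13, Ifitm3 and Bst2, which block viral entry and release, by −2.10 ± 0.08 and −1.88 ± 0.09, and Ifit2 by −0.83 ± 0.09 on the log2 scale. Of the 3 members that did not pass, Ifi27 averaged 40.4 ± 0.849 CPM with IFNg and 39.8 ± 4.88 CPM with IFNb, and Ifitm2 82.01 ± 0.84 and 91.98 ± 1.06 CPM. In the list of ISG15-system genes, which tag proteins with a ubiquitin-like modifier, and of PARP genes with their partner Dtx3l, 11 of 11 tested members were lower with IFNg (median −1.32). Isg15 itself had 26.9, 27.5 and 31.6 CPM with IFNg, against 307, 315 and 289.7 CPM with IFNb and 4.8, 3.8 and 4.33 CPM in NS (−3.41 ± 0.10, adjusted p = 2.47e-35). Usp18, the protease that removes Isg15 and damps the type I receptor, averaged 9.0 ± 1.28 CPM with IFNg and 244 ± 20.97 CPM with IFNb (−4.76 ± 0.10), and Parp14 differed by −1.35 ± 0.08.

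Nucleic acid sensors were lower with IFNg in 17 of 22 tested members and higher in 0 (median −1.70, or −2.01 over the 21 members past 3 counts in either group). The RNA helicase genes Ddx58 (−2.24 ± 0.06), Ifih1 (−3.46 ± 0.10) and Dhx58 (−4.12 ± 0.10) and the endosomal receptor gene Tlr3 (−2.01 ± 0.10) were among them. Ifih1 averaged 8.38 ± 0.56 CPM with IFNg, 92.03 ± 8.62 CPM with IFNb and 0.985 ± 0.343 CPM in NS. In the PYHIN family, a cluster of DNA-binding sensor genes on chromosome 1, Ifi207 and Ifi206 had the widest gaps among the named genes with more than 3 counts in both groups. Both, and Ifi209, are in no list and were taken in for the size of their difference. Ifi207, whose window is shown above, had 0.159, 0.0873 and 0.137 CPM with IFNg, against 31.8, 41.6 and 30.01 CPM with IFNb and no count in NS (−7.95 ± 0.26, adjusted p = 2.56e-32). Its neighbour Ifi206 had 0.159, 0.175 and 0.172 CPM with IFNg and 32.2, 38.8 and 31.2 CPM with IFNb (−7.58 ± 0.23). IFNg did not pass against NS for either (adjusted p = 0.349 and 0.2). Ifi209 (−6.12 ± 0.28), Ifi204 (−5.54 ± 0.19) and Ifi203 (−4.94 ± 0.16) ran the same way. Of other listed relatives, Ifi205 (−4.78 ± 0.36) and Mndal (−3.92 ± 0.13) were lower with IFNg, and Aim2 did not pass (−0.29 ± 0.47). Trim30a, a ubiquitin ligase gene that restrains inflammatory signalling, had 2.11, 2.01 and 2.33 CPM with IFNg, against 137, 156 and 134 CPM with IFNb (−6.04 ± 0.13). Zbp1, a sensor of Z-form nucleic acid, was less apart, at 66.1 ± 2.31 CPM with IFNg, 172 ± 16.97 CPM with IFNb and 0.161 ± 0.0666 CPM in NS (−1.38 ± 0.08).

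The Slfn and Ly6 families held members of both kinds, with 2 of 12 tested higher and 7 lower with IFNg (background 17.8% and 10.5%). Slfn8 averaged 2.81 ± 0.444 CPM with IFNg and 46.9 ± 1.95 CPM with IFNb (−4.06 ± 0.13), and Lgals3bp, a secreted glycoprotein gene kept in this list, 144 ± 0.619 and 669 ± 26.8 CPM (−2.22 ± 0.05). Among cell death genes 6 of 25 tested were higher and 5 lower, not far from the 17.8% and 10.5% of all genes tested. These counts are not read as a result about the list. Casp12, an inflammatory caspase gene, averaged 35.5 ± 1.15 CPM with IFNg and 14.05 ± 1.85 CPM with IFNb (1.29 ± 0.09), and Casp1 9.81 ± 0.897 and 4.96 ± 0.644 CPM (0.92 ± 0.13). The death ligand gene Tnfsf10 was lower with IFNg, at 1.91, 2.09 and 1.79 CPM against 10.2, 13.7 and 8.2 CPM with IFNb and 0.143, 0.173 and 0.721 CPM in NS (−2.54 ± 0.18).

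**Figure D3:**
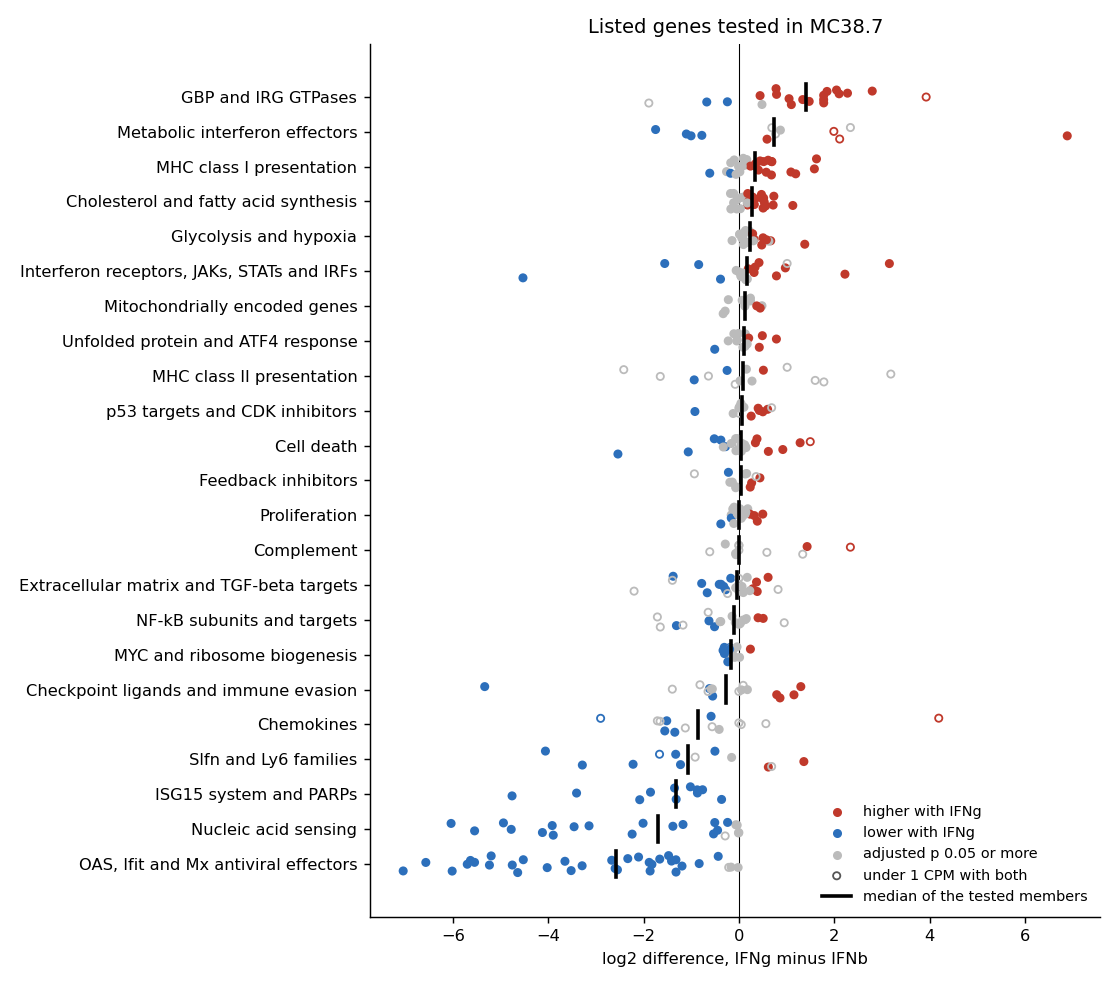
Log2 difference, IFNg minus IFNb, of each tested member of the gene lists in MC38.7, 1 row a list, with the black mark at the median of its tested members. Red and blue points passed the test (higher and lower with IFNg), grey points did not, and hollow points were under 1 CPM with both cytokines; the GBP row lies mostly right of 0 and the rows of antiviral, ISG15 and PARP, and nucleic acid sensing genes left of it.

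Some genes were near absent with 1 cytokine, and for these the counts are given. Apol6, an apolipoprotein L gene, had 11, 11.9 and 11.02 CPM with IFNg, against 0.182, 0 and 0 CPM with IFNb and 0.0717, 0.173 and 0 CPM in NS. That is 869 counts with IFNg and 3 with IFNb, a ratio of 137 (95% interval 46.6 to 663, exact binomial). Serpina3f, a serine protease inhibitor gene, had 140 counts with IFNg and 0 with IFNb, at least 22-fold higher. Slc6a19, an amino acid transporter gene, had 80 counts with IFNg and 1 with IFNb, a ratio of 37.7 (6.58 to 1510). On the other side, Pax5, a B-cell transcription factor gene, had 1 count with IFNg and 390 with IFNb, so that IFNb exceeded IFNg by a ratio of 827 (148 to 32800). Ifit1bl2, an Ifit family gene, had 0 counts with IFNg and 481 with IFNb, at least 340.1-fold lower with IFNg. Spats2l had 0 and 33 counts with IFNg and IFNb, at least 23.3-fold lower with IFNg. Apod, a lipocalin gene, passed 3 counts in both groups and had 0.518, 0.786 and 0.584 CPM with IFNg, against 56.4, 55.8 and 49.7 CPM with IFNb and 0.43, 0.345 and 0.271 CPM in NS (−6.42 ± 0.15).

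Another group of genes stood below NS with IFNb and near NS with IFNg. In the list of cholesterol and fatty acid synthesis genes, 17 of 27 tested were higher with IFNg and 0 lower (background 17.8% and 10.5%). Their median log2 difference was 0.27. Against NS, 6 of the 27 were higher and 0 lower with IFNg (background against NS 3.89% and 0.886%). With IFNb 5 were higher and 13 lower than NS (background 13.8% and 16.8%). With relative log expression size factors 14 were higher and 1 lower with IFNg than with IFNb, with a median of 0.21. Acss2, which makes acetyl-CoA from acetate, had 20.8, 19.3 and 21.3 CPM with IFNg, against 10.3, 7.83 and 10.8 CPM with IFNb and 19.4, 19.8 and 20.8 CPM in NS (1.13 ± 0.14, adjusted p = 5.81e-09). Its IFNb libraries lay below all others, IFNb fell against NS by a log2 difference of −1.10 (adjusted p = 5.36e-08), and IFNg did not pass against NS (adjusted p = 0.991). Nsdhl and Mvd, enzymes of the sterol pathway, differed by 0.73 ± 0.10 and 0.72 ± 0.09 between the cytokines, and the desaturase gene Scd2 averaged 2534 ± 17.6 CPM with IFNg, 1752 ± 119 CPM with IFNb and 2719 ± 18.1 CPM in NS (0.53 ± 0.10). The fatty acid synthase gene Fasn and the desaturase gene Scd1 did not pass, with log2 differences of −0.17 ± 0.09 and 0.17 ± 0.09.

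Kif21b, a kinesin gene, had the same shape and averaged 4.23 ± 1.04 CPM with IFNg, 1.04 ± 0.3 CPM with IFNb and 6.48 ± 0.976 CPM in NS (1.87 ± 0.26). The metallothionein genes Mt1 and Mt2, which bind zinc and copper, the medium-chain acyl-CoA synthetase gene Acsm3 and the alarmin gene Il33 were chosen after their values were seen. Mt1 had 633, 628 and 693 CPM with IFNg, against 303, 292 and 303 CPM with IFNb and 746, 729.6 and 685 CPM in NS (1.12 ± 0.12). Mt2 averaged 1096 ± 47.96 CPM with IFNg, 521 ± 6.58 CPM with IFNb and 997 ± 65.04 CPM in NS. Acsm3 averaged 161 ± 4.38 CPM with IFNg and 54.9 ± 2.55 CPM with IFNb (1.54 ± 0.09), and Il33 17.7 ± 0.965 and 6.36 ± 0.285 CPM (1.49 ± 0.19). For all 4 the IFNb libraries lay below both other groups.

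Irak2, a kinase gene of Toll-like receptor signalling, was higher with IFNg than in either other group, at 18.3, 17.4 and 15.7 CPM, against 2.6, 3.21 and 0.938 CPM with IFNb and 4.95, 3.63 and 3.34 CPM in NS (2.68 ± 0.15, adjusted p = 1.82e-22). Il15ra, the receptor chain that presents interleukin 15, averaged 21.5 ± 0.166 CPM with IFNg and 8.28 ± 2.21 CPM with IFNb (1.46 ± 0.16; chosen after its values were seen), while Il15 itself was lower with IFNg (−1.31 ± 0.23).

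Counts in the remaining lists stand beside 17.8% higher and 10.5% lower over all genes tested. Of 26 proliferation genes 4 were higher and 2 lower with IFNg (median 0.01), with Top2a at 833 ± 19.2 CPM with IFNg and 636 ± 31.04 CPM with IFNb (0.39 ± 0.06). Of 16 MYC and ribosome biogenesis genes 1 was higher and 6 lower (median −0.16), and with relative log expression size factors 0 were higher and 11 lower. Of 20 glycolysis and hypoxia genes 7 were higher and 0 lower (median 0.24), with Ndrg1 at 0.58 ± 0.11. Extracellular matrix genes split into 4 higher and 8 lower of 24, and into 2 and 9 with relative log expression size factors. Thbs1, the thrombospondin gene, had 67.6, 66.5 and 71.3 CPM with IFNg, against 181, 189.7 and 160.3 CPM with IFNb and 41.1, 39.99 and 39.9 CPM in NS (−1.38 ± 0.12). Cdkn1a, which encodes the cell cycle inhibitor p21, ran the same way at 34.97 ± 3.91 CPM with IFNg and 65.6 ± 3.65 CPM with IFNb (−0.92 ± 0.09).

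The same contrast was set against that of the other 7 lines. At least 2-fold and past the test, the numbers of genes higher and lower with IFNg were 155 and 342 in MC38.7, 250 and 487 in LLC, 492 and 284 in KPC.2, 147 and 11 in CT26.2, 203 and 33 in Renca, 413 and 178 in YUMMER1.7, 1258 and 1035 in B16.1, and 1317 and 2001 in Panc02.3. These counts also follow each line's depth and spread. The median log2 difference of the 34 antiviral effectors was −2.57 in MC38.7, between −3.04 (LLC) and −1.23 (KPC.2) in order, with −0.12 in Renca, 0.17 in CT26.2, 0.63 in YUMMER1.7, 0.70 in Panc02.3 and 1.78 in B16.1. That of the 20 GBP and IRG genes was 1.41 in MC38.7 and 0.63 in LLC, and lay between 3.21 and 6.29 in the other 6 lines.

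The departure of MC38.7 is its difference between the cytokines minus the mean of the same difference in the other 7 lines, tested in the same edgeR model. Among 10433 genes with more than 3 counts in every group used, 2629 departed upward (25.2%) and 1418 downward (13.6%), so 65.0% of the calls were upward, against 51.1% with relative log expression size factors. With at least 2-fold, 89 departed upward (0.853%) and 225 downward (2.16%). Downward departures took in 30 of 32 antiviral, 10 of 10 ISG15-system and PARP, 16 of 18 nucleic acid sensing, 15 of 15 GBP and IRG and 22 of 26 MHC class I genes. Upward ones took in 22 of 26 cholesterol and fatty acid synthesis genes and 18 of 26 proliferation genes (21 and 16 with relative log expression size factors), where the background was 25.2%. In each case 1 of the other lines lay far below the rest. The median log2 difference of the proliferation genes was 0.01 in MC38.7 and −1.90 in B16.1, where 26 of 26 were lower with IFNg, and between −0.14 and 0.22 in the other 6 lines. That of the cholesterol and fatty acid genes was 0.27 in MC38.7 and −1.76 in Panc02.3, where 27 of 27 were lower, and LLC was above MC38.7 at 0.33. The GBP and IRG genes, though mostly higher with IFNg in MC38.7, thus had a smaller difference there than on the mean of the other lines. In each list named for downward departures, LLC had a lower median than MC38.7. For ISG15-system and PARP genes it was −1.59 in LLC and −1.32 in MC38.7. It was −2.38 and −1.70 for nucleic acid sensing genes, and 0.07 and 0.34 for MHC class I genes. These downward departures are therefore from the mean of the other lines and not from each of them.

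Isg15 shows the range over lines. Its log2 difference, IFNg minus IFNb, was −3.41 in MC38.7, −5.47 in LLC, −2.70 in KPC.2, −0.34 in Renca, 0.32 in CT26.2, 0.73 in YUMMER1.7, 1.30 in Panc02.3 and 2.02 in B16.1. Isg15 was thus lower with IFNg in MC38.7 and in 3 of the other 7 lines and higher in 4. Cxcl10 was lower with IFNg in MC38.7 (−1.55) and LLC (−4.05) and higher in the other 6 lines, by 2.29 to 4.79. Cd274 was higher with IFNg in MC38.7 (1.30) and in 6 of the other 7 lines, and lower in LLC (−0.30). Gbp2 and Irf1 were higher with IFNg in all 8 lines. The Gbp2 difference was 2.80 in MC38.7, 2.47 in LLC and between 3.94 and 6.86 in the other 6, and that of Irf1 was 2.23, 2.15 and between 2.79 and 4.20.

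Ifi207 departed most, with −8.63 ± 0.26 (SE; adjusted p = 1.39e-33): its log2 difference was −7.95 in MC38.7 and averaged 0.67 over the other 7 lines, of which LLC was at −4.66. Csprs (−6.30 ± 0.25), the PYHIN gene Ifi204 (−6.28 ± 0.19), Phf11b (−6.03 ± 0.45) and Oas2 (−5.81 ± 0.18) followed on that side. On the other side, Celf5, an RNA-binding protein gene, departed by 2.95 ± 0.55 and Camk2b, a calmodulin-dependent kinase gene, by 2.25 ± 0.34. Camk2b averaged 1.95 ± 0.146 CPM with IFNg and 0.534 ± 0.211 CPM with IFNb in MC38.7, and Celf5 0.745 ± 0.0853 and 0.105 ± 0.0973 CPM, so these were genes of low level, and Celf5 lost both calls with libraries thinned to the smallest.

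**Figure D4:**
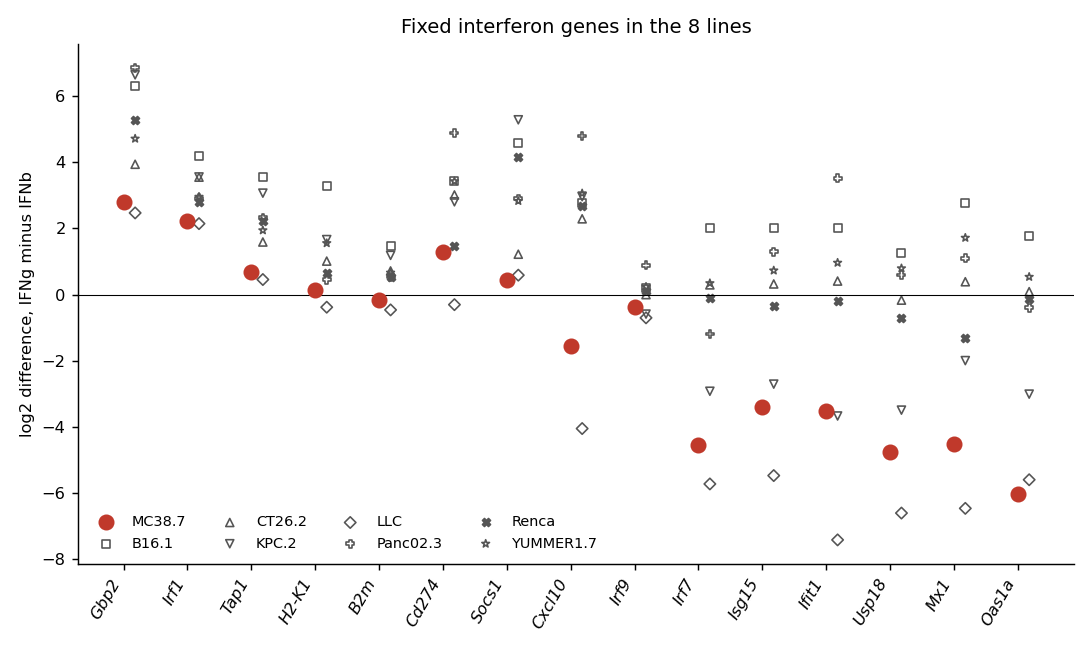
Log2 difference, IFNg minus IFNb, of 15 genes in each of the 8 lines, with MC38.7 filled in red. MC38.7 lies at or near the low end for Irf7, Isg15, Usp18, Mx1, Oas1a and Cxcl10, and Gbp2 and Irf1 lie above 0 in all 8 lines.

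CT26.2 is the other colorectal line, of BALB/c origin, so line and strain cannot be told apart. Among 12226 genes with more than 3 counts in the 4 groups, 84 had a difference at least 2-fold higher in MC38.7 than in CT26.2 (0.687%) and 261 one at least 2-fold lower (2.13%). Irf7 had a log2 difference of −4.53 in MC38.7 and 0.29 in CT26.2, a gap of −4.83 ± 0.13 (SE; adjusted p = 6.69e-38). In CT26.2 Irf7 averaged 666 ± 14.3 CPM with IFNg, 543 ± 7.29 CPM with IFNb and 248 ± 13.3 CPM in NS, while MC38.7 averaged 0.476 CPM in NS. Gbp2 was higher with IFNg in both, by 2.80 in MC38.7 and 3.94 in CT26.2 (gap −1.14 ± 0.12). Cd274 differed by 1.30 in MC38.7 and 3.01 in CT26.2 (gap −1.71 ± 0.13, adjusted p = 5.91e-17).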

How the data were processed

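RNA was sequenced from 70 libraries of 8 mouse cancer lines. Per the labels' protocols, extraction used Qiagen RNeasy mini kits and the library kit was NEB Ultra II Directional. The submitters' processing notes name Trimmomatic 0.36, kallisto and the build mm10 (GRCm38). The kallisto version and the step from transcripts to genes are not given in the sources used here. The authors deposited 1 table of estimated counts for 35197 genes, as whole numbers with no scaling between libraries. Columns were matched to samples by title.

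From these counts, 1 quasi-likelihood model in edgeR 4.0.16 (R 4.3.3) fitted all 24 combinations of line and treatment as group means. Each gene's spread was estimated over all groups and moderated across genes (9.22 prior degrees of freedom). TMM factors scaled the libraries, and edgeR's default count filter kept 16147 genes. P-values were adjusted by Benjamini-Hochberg over all of these, with 0.05 as the threshold. Standard errors are log2 differences over the root of the F statistic. Folds against a group with 0 counts use a floor of 3 counts over the group, which is 0.0389 CPM for IFNg, 0.0825 CPM for IFNb and 0.0819 CPM for NS. Ratios of counts carry exact 95% binomial intervals, computed with scipy 1.17.1, that cover counting error only. The script was tested on simulated data with known changes.

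Named genes were, by rule, the 15 largest differences in each direction with over 3 counts in both groups, at least 1 CPM and no overlap between libraries, leaving out predicted loci. Up to 6 genes in each direction with 3 or fewer counts in 1 group, the 8 largest departures in each direction, a set of fixed genes, and from each of 28 lists up to 4 members that passed and 2 that did not were added. Further listed members in the text were chosen after their values were seen, and a few genes named by the rule are not reported here. The rule, the lists and their members were chosen with earlier results of these data known. The departure was counted only where all groups used had over 3 counts, a limit added after seeing that the test gives no valid value for a group at 0. Replicates differed by more than sampling noise (chi-square per degree of freedom 1.7 to 4.51), and none was counted as a duplicate. Promoters came from RefSeq (GRCm38.p6) and gene positions from the GRCm38 annotation. Alternatives were DESeq2 1.42.0, limma-voom (limma 3.58.1), other size factors, no filter, MC38.7 fitted alone, libraries thinned to the smallest, a replicate block and leaving out each library.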

Additional observations from a re-analysis of the deposited data

Results flagged for a closer look

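For 16 genes the difference between IFNg and IFNb in MC38.7 departed from the mean of the same difference in the other 7 lines, and was called in MC38.7 itself. They are the 8 with the largest upward and the 8 with the largest downward departure by the rule for named genes, all past edgeR's quasi-likelihood test of the departure after Benjamini-Hochberg adjustment. Upward were Celf5 (log2 departure 2.95 ± 0.55 SE), the protocadherin gene Pcdhb20 (2.63 ± 0.59), Camk2b (2.25 ± 0.34), the kinesin gene Kif21b (2.23 ± 0.31), the DNA polymerase gene Poln (1.95 ± 0.43), the guanine exchange factor gene Arhgef28 (1.72 ± 0.25), the thialysine acetyltransferase gene Sat2 (1.62 ± 0.33) and the circadian factor gene Dbp (1.58 ± 0.17). Downward were Ifi207 (−8.63 ± 0.26), Csprs (−6.30 ± 0.25), Ifi204 (−6.28 ± 0.19), Phf11b (−6.03 ± 0.45), Oas2 (−5.81 ± 0.18), Ifi203 (−5.70 ± 0.16), Oas1g (−5.51 ± 0.22) and Ifit3 (−5.22 ± 0.12).

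All 8 upward genes had low levels in MC38.7, with means between 0.745 (Celf5) and 8.75 CPM (Dbp) with IFNg and between 0.105 and 4.31 CPM with IFNb. With IFNb the mean was below that of NS for each of them. Kif21b averaged 4.23 ± 1.04 CPM with IFNg and 1.04 ± 0.3 CPM with IFNb. Without the third IFNb library, which was the shallowest of MC38.7, each of the 16 genes stayed past the test of the departure with the same sign, Celf5 at 2.77 and Ifi207 at −8.68. With the MC38.7 libraries thinned to the smallest, Celf5 no longer passed (2.48, adjusted p = 0.0624). Of the downward genes, Ifi207, Ifi204 and Ifi203 averaged a positive difference over the other 7 lines (0.67, 0.73 and 0.75), so that MC38.7 and that mean differed in sign. The LLC line was lower with IFNg for all 8 downward genes, and its log2 differences were near or beyond those of MC38.7 for Oas2 (−7.04 in MC38.7 and −6.93 in LLC), Ifit3 (−5.23 and −7.34), Phf11b (−5.77 and −6.75) and Oas1g (−6.57 and −6.87), so these departures are from the mean of the other lines and not from each of them. Of the upward genes, Dbp was at −3.69 and Celf5 at −3.22 in Panc02.3, below every other line. Ifi207, Ifi204 and Ifi203 are close relatives of the PYHIN family, so reads may have been divided between them.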

How the results depend on the processing

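The 155 genes at least 2-fold higher with IFNg ranged from 107 to 200 under the other settings and the 342 lower ones from 240 to 389, except 687 lower under limma-voom; the cause of that count was not tested. Leaving out 1 library at a time gave 129 to 153 higher and 286 to 325 lower genes, 87 to 110 and 215 to 236 departures, and 67 to 96 and 237 to 270 differences from CT26.2. It moved the mitochondrial share difference between −0.0795 and 0.157 percentage points. Same-numbered IFNg and IFNb libraries did not deviate together (correlations between −0.10 and 0.04, and between −0.108 and 0.147 for other pairs). Deviations from means of so few libraries cannot show whether the numbers pair the samples. A fit with the replicate block gave 145 higher and 322 lower genes, 92 and 224 departures, and 88 and 248 differences from CT26.2. Of 3924 values of named genes under other settings, 3715 kept their side of the threshold, 152 lost a call and 57 gained one. Of the called values 0 reversed, and the direction of values not called was not compared. Counting each gene once in each comparison, 44 of the named values lost a call at least once. The share of calls that were higher with IFNg ranged from 48.4% (thinned libraries) to 65.7%, and in the difference from CT26.2 was 57.9%, against 39.0% with relative log expression size factors. The third IFNb library was the shallowest, at 3940566 counts. Thinning the other IFNg and IFNb libraries of MC38.7 to that depth ended calls such as those of Celf5, Tnfrsf14 and Cxcl9. Leaving the third IFNb library out ended 8 calls among 286 named values, against 18 without the first and 19 without the second. What the depth of that 1 library limits was not tested.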

Other observations

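Further lists outside the interferon core are given beside the 17.8% of all tested genes that were higher with IFNg and the 10.5% that were lower. Of 14 unfolded protein and ATF4 response genes 4 were higher and 1 lower with IFNg. Trib3, a pseudokinase gene of the ATF4 response, had 441, 431 and 453 CPM with IFNg, against 273, 236 and 258 CPM with IFNb and 457, 475 and 431 CPM in NS (log2 difference 0.79 ± 0.18 SE, adjusted p = 0.000406 in edgeR's quasi-likelihood test). Ddit3, which encodes CHOP, averaged 174 ± 6.76 CPM with IFNg, 124 ± 7.96 CPM with IFNb and 179.8 ± 5.89 CPM in NS (0.49 ± 0.13). The chaperone gene Hspa5 did not pass (−0.01 ± 0.05). Against NS, 3 of the 14 were higher and 3 lower with IFNb, beside 13.8% and 16.8% of all genes tested. With IFNg 1 of the 14 was higher and 0 lower than NS, beside 3.89% and 0.886%. These counts against NS are not read as a result about the list. Among 14 p53 targets and CDK inhibitors 5 were higher and 1 lower with IFNg, and the lower one was Cdkn1a. Cdkn2c, which encodes the inhibitor p18, averaged 22.6 ± 1.87 CPM with IFNg and 14.3 ± 2.4 CPM with IFNb (0.60 ± 0.09).

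Of 20 NF-kB subunits and targets 2 were higher and 3 lower with IFNg. The growth factor gene Csf1, which supports macrophages, had 118, 123 and 121 CPM with IFNg, against 180.3, 203 and 175 CPM with IFNb and 66.4, 64.7 and 65.7 CPM in NS (−0.63 ± 0.05), while the subunit genes Nfkb1 (−0.01 ± 0.06) and Nfkb2 (0.08 ± 0.05) did not pass. Of 12 feedback inhibitors 3 were higher and 1 lower. Socs1, which blocks JAK kinases, averaged 22.7 ± 1.48 CPM with IFNg, 16.6 ± 0.281 CPM with IFNb and 7.03 ± 0.563 CPM in NS (0.44 ± 0.11), a call lost with libraries thinned to the smallest, and the phosphatase gene Ptpn11 was the lower one (−0.22 ± 0.06). Of 11 complement genes 2 were higher and 0 lower, led by C4b at 3.07 ± 0.216 CPM with IFNg and 1.08 ± 0.179 CPM with IFNb (1.43 ± 0.24, a call lost with thinned libraries). Among 12 metabolic interferon effectors 4 were higher and 4 lower. The tryptophan-degrading enzyme gene Ido1 was at 0.811 ± 0.116 CPM with IFNg and 0.204 ± 0.0727 CPM with IFNb (1.99 ± 0.40). Its level was low, with 62 counts over the IFNg libraries and 7 over the IFNb libraries. The apolipoprotein L gene Apol9a ran the other way, at 139 ± 3.74 CPM with IFNg and 299 ± 1.99 CPM with IFNb (−1.10 ± 0.08). Nos2, the inducible nitric oxide synthase gene, did not pass, at 1.89 ± 0.599 CPM with IFNg and 0.874 ± 0.61 CPM with IFNb (adjusted p = 0.24).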
